A study of Mus musculus with 6 samples.

Results

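The UDP-glucuronosyltransferases (UGTs) are enzymes of the endoplasmic reticulum that join a sugar, usually glucuronic acid taken from UDP-glucuronate, to bilirubin, steroids, bile acids and drugs. The conjugates dissolve in water, leave the liver cell through transporters and pass into bile or blood. The 10 genes described are Ugt1a1, Ugt2a3, Ugt2b1, Ugt2b5, Ugt2b34, Ugt2b35, Ugt2b36, Ugt2b38, Ugt3a1 and Ugt3a2. They were taken by gene name from the rows of the deposited table that carry an Ensembl transcript, and each of the 10 matched 1 of its 42612 loci.

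The study profiled liver RNA from male mice of the outbred ICR stock, 8 weeks old per the labels, that had been dosed by oral gavage for 4 weeks. The SASP group received sulfasalazine at 1000 mg/kg in 0.1% DMSO, and the Control group received 0.1% DMSO alone, both at 10 mL/kg. Sulfasalazine is an anti-inflammatory prodrug whose azo bond is cleaved by bacteria of the colon, which frees sulfapyridine and mesalazine. Each group has 3 libraries out of 10 mice treated, and the labels do not say that each library is a single mouse, so p-values measure only the spread between these samples. Mice were housed 10 to a cage, and the labels do not say whether cage and group coincided, so an effect of the cage cannot be told apart from the treatment. Groups given 250 and 500 mg/kg are also named in the labels and were not analysed here. Levels are FPKM, a fragment count corrected for how long the transcript is and how many fragments the library mapped, which can be set side by side between genes, and the depth of the libraries is unknown. FPKM summed to between 243920 and 254900 in the SASP libraries and between 224430 and 260050 in the Control libraries. The tissue label is liver, while the extraction protocol speaks of an adipose type, so the label was checked against 5 hepatocyte markers. Their FPKM summed to between 19844 and 22373 in SASP and between 19444 and 23717 in Control libraries. UGT-rich intestine and kidney were checked with Fabp2, Vil1, Umod and Slc34a1. Their sum was 12.2 to 22.4 FPKM in SASP and 13.6 to 18.0 FPKM in Control libraries, nearly all of it Fabp2, while the kidney marker Umod was listed at 0 in all SASP libraries and in Control libraries 1 and 3.

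Mouse UGT genes lie in clusters of related copies. On GRCm38 the 7 Ugt2 genes described here lie within 534.4 kb of chromosome 5, from 86889767 to 87424203. Within it Ugt2b5 runs from 87124960 to 87140318, Ugt2b36 from 87065927 to 87092555, Ugt2b1 from 86916638 to 86926530 and Ugt2b38 from 87409942 to 87424203, each on the minus strand and annotated as protein-coding. Ugt3a1 and Ugt3a2 lie side by side within 94.1 kb of chromosome 15, from 9276888 to 9370955. Ugt1a1 is 1 of 9 Ugt1a genes within 164.6 kb of chromosome 1, from 88055388 to 88220002, and itself runs from 88211959 to 88218997 on the plus strand. These genes join different starting exons to the same terminal exons. The deposited row named Ugt1a1 holds 14 Ensembl transcripts of 7 Ugt1a genes (Ugt1a1, Ugt1a2, Ugt1a6a, Ugt1a6b, Ugt1a7c, Ugt1a8 and Ugt1a10) and of the pseudogenes Gm15370 and Gm15371. It is called the Ugt1a locus from here on, since its value cannot be given to Ugt1a1 alone. Each of the other 9 rows holds Ensembl transcripts of a single gene.

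The reading frames of the copies differ widely in likeness. Taking for each gene its longest open reading frame among GENCODE M21 coding transcripts, the 10 genes have frames of 523 to 535 codons. Ugt2b5 and Ugt2b38 are identical at 97.05% of aligned frame bases, and Ugt3a1 and Ugt3a2 at 93.3%. Ugt2b36 is closest to Ugt2b5 at 89.0%, while Ugt2b1 has no closer relative among those compared than Ugt2b34 at 76.3%. This bears on how far a value belongs to its gene, since a short read from a shared stretch can be placed on either copy. Windows of 50 bases that also occur in the transcripts of another gene made up 58.2% of the Ugt1a1 transcript, 41.7% of Ugt2b5 and 37.4% of Ugt2b38. The share was 9.39% in Ugt3a1 and in Ugt3a2, 4.55% in Ugt2a3, 2.07% in Ugt2b34 and 0.725% in Ugt2b35. It was 0.326% in Ugt2b36 and 0 in Ugt2b1. The values of Ugt2b5 and Ugt2b38 are given separately and as a sum.

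**Figure D1:**
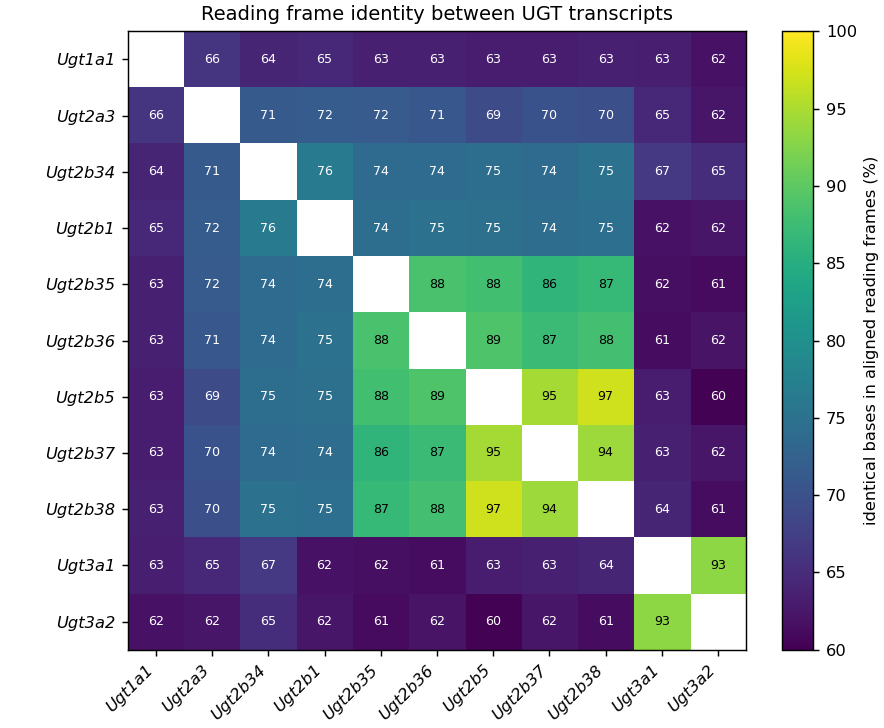
Percent of identical bases in pairwise aligned reading frames of the 10 genes and of Ugt2b37, a copy on the same chromosome, with each gene on both axes and the colour scale running from 60 to 100%. The Ugt2b5, Ugt2b37 and Ugt2b38 block and the Ugt3a1 and Ugt3a2 pair stand out, with 97.05% for Ugt2b5 and Ugt2b38 and 93.3% for the Ugt3a pair.

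The promoters of Ugt2b5, Ugt2b38 and Ugt2b37 are shown because these copies are close in sequence and far apart in RNA level. They are RefSeq sequences on GRCm38.p6, from 250 bases before to 50 bases after the start used there, written 5′ to 3′ along the gene. For Ugt2b5 that start is not the GENCODE one at 87140318, so its window is placed differently against the coordinates given above. Capitals in Ugt2b38 and Ugt2b37 mark aligned bases that differ from Ugt2b5. With Ugt2b5, 290 bases of Ugt2b38 and 276 of Ugt2b37 were aligned. Bases without a partner, at the ends or in gaps, stay in lower case and are left out of the identities below.
Ugt2b5 (chr5:87140291-87140590, minus strand): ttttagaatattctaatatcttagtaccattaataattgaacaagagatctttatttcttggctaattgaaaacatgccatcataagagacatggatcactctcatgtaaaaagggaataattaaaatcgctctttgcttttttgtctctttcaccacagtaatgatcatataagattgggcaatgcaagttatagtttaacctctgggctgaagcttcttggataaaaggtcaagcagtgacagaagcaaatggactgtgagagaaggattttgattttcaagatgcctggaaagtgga
Ugt2b38 (chr5:87424154-87424453, minus strand): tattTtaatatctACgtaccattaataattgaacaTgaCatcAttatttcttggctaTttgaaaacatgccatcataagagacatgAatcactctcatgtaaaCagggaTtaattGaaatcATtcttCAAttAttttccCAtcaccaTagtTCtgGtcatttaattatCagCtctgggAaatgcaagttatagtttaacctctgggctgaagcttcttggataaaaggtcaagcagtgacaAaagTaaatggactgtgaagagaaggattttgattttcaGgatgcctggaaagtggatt
Ugt2b37 (chr5:87254739-87255038, minus strand): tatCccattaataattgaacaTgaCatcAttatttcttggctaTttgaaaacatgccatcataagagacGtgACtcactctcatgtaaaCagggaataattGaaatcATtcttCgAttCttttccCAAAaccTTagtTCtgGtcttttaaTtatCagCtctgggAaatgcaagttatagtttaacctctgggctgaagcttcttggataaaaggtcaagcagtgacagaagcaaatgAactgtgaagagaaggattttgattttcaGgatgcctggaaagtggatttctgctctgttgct
The capitals stand at 29 positions in Ugt2b38 and 30 in Ugt2b37. They are densest around the middle of the window, while the last stretch before the start differs little. Ugt2b5 and Ugt2b38 are identical at 90.0% of aligned promoter bases, Ugt2b5 and Ugt2b37 at 89.1%, and Ugt2b38 and Ugt2b37 at 95.45%. Over the 6 libraries the mean RNA level was 289.6 FPKM for Ugt2b5, 25.0 FPKM for Ugt2b38 and 0.91 FPKM for Ugt2b37.

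In these livers the UGT transcripts summed to 957.5 ± 134 FPKM in SASP and 797 ± 203 FPKM in Control libraries (SD, n = 3 each). This was 0.382% of all FPKM in SASP and 0.328% in Control libraries. By library the sum was 1109.5, 858 and 905 FPKM in SASP libraries 1, 2 and 3, against 841, 974 and 576 FPKM in Control libraries 1, 2 and 3. The groups overlap, with Control library 3 lowest of the 6 and SASP library 1 highest. In whole liver RNA, fewer cells of a type and less RNA per cell cannot be told apart. Ugt2b5, Ugt2b36 and Ugt2b1 together held 73.4 ± 0.742% of the sum in SASP and 69.5 ± 7.64% in Control libraries (SD, n = 3 each).

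**Figure D2:**
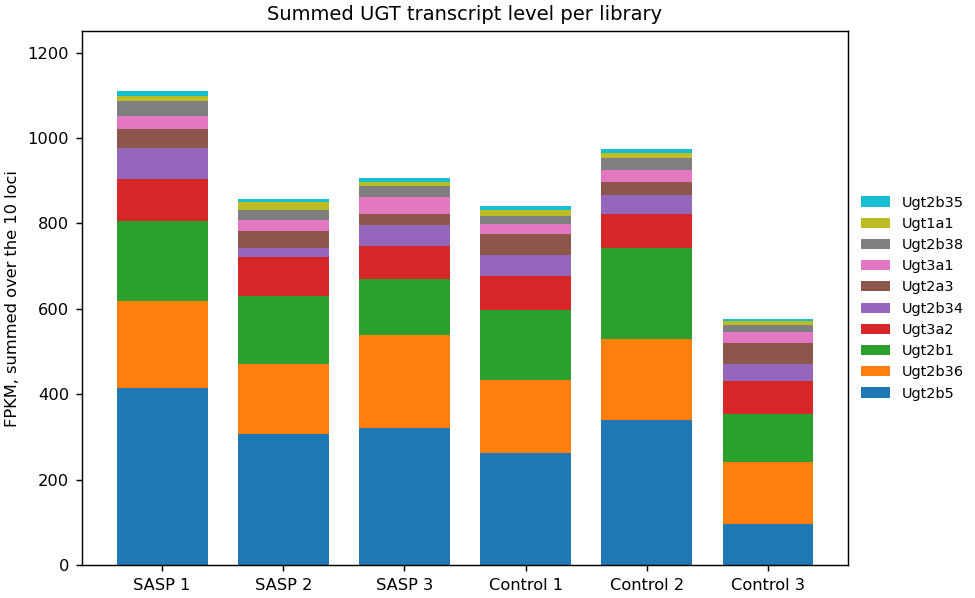
Stacked FPKM of the 10 loci for each library, with SASP libraries on the left, Control libraries on the right and a linear axis from 0. Ugt2b5 is the lowest block and is thinnest in Control library 3, whose total of 576 FPKM is the smallest.

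The order of the members by mean FPKM was the same in both groups: Ugt2b5, Ugt2b36, Ugt2b1, Ugt3a2, Ugt2b34, Ugt2a3, Ugt3a1, Ugt2b38, the Ugt1a locus and Ugt2b35. Means over the 6 libraries ran down this order from 289.6 FPKM for Ugt2b5 through 182 for Ugt2b36, 161 for Ugt2b1 and 83.8 for Ugt3a2 to 46.5 for Ugt2b34. They went on with 40.2 FPKM for Ugt2a3, 28.0 for Ugt3a1, 25.0 for Ugt2b38, 12.7 for the Ugt1a locus and 8.32 for Ugt2b35. Among neighbours in this order, the ranges over the 6 libraries were apart for Ugt2b1 over Ugt3a2 and for Ugt3a2 over Ugt2b34. The other 7 neighbouring pairs overlapped in range, although Ugt2b38 was above the Ugt1a locus in 6 of 6 libraries.

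**Figure D3:**
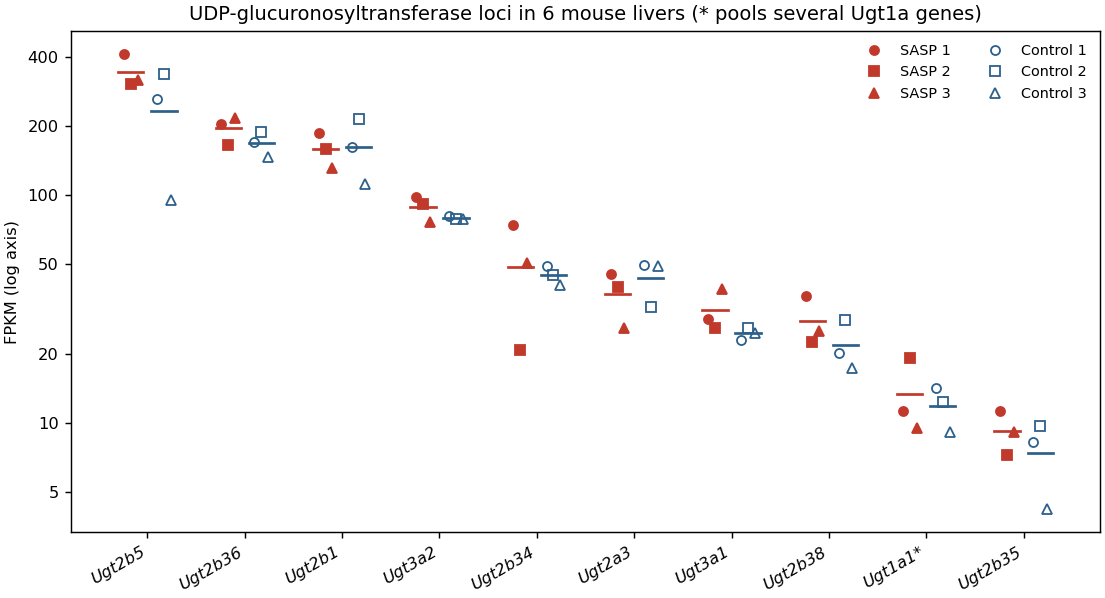
FPKM of each member on a log axis, 1 symbol per library, with filled red symbols for SASP and open blue symbols for Control, horizontal bars for the group means and members ordered by mean level. SASP and Control symbols overlap in each member, and the open triangle of Control library 3 is the lowest of the 6 symbols in 6 of the 10 members.

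The question put to these genes was whether treated livers carried more or less of their RNA than vehicle livers. It was tested with limma on log2(FPKM + 1) over the 11969 loci that reached 1 FPKM in 3 or more libraries, and fold changes on that scale understate the change of low genes. All 10 members entered the test, and 0 passed an adjusted p of 0.05, against 2 of 11969 loci (0.0167%). By an unadjusted p under 0.05 the count was also 0 of 10, against 899 loci (7.51%). In 0 of 10 members did the SASP and Control values fail to overlap, against 1576 loci (13.2%), of which 803 were higher in SASP (6.71% of loci). Fold changes were positive in 8 members and negative in 2, against 5940 positive and 6029 negative over all tested loci. The median log2 fold change was 0.18 in the members and -0.0021 over all tested loci. Control library 3 held the lowest value of the 6 libraries in 6 members, each of them among the 8, so these signs are not independent. The signs of Ugt2b1, Ugt2b34 and the Ugt1a row turned when single libraries were left out, and that of Ugt2b1 also under rescaling. For Ugt2b1 and Ugt2b34 the sign on the log scale is opposite to that of the difference between the group means in FPKM. Adjusted p lay between 0.774 and 0.999 (limma). These results do not show that the levels were alike, and the intervals below give the range of change for each.

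The Ugt1a locus comes first by role, since Ugt1a1 is the enzyme that conjugates bilirubin and other Ugt1a forms act on phenols and drugs. It stood at 11.3, 19.4 and 9.55 FPKM in SASP libraries 1, 2 and 3, against 14.3, 12.4 and 9.15 FPKM in Control libraries 1, 2 and 3. The groups overlap, and SASP library 2 is the highest of the 6. Its log2 fold change came to 0.11 (SE 0.29), with a 95% interval of -0.59 to 0.82 (limma, adjusted p = 0.947). Without SASP library 2 it was -0.17 and without Control library 3 it was -0.05, so its sign rests on single libraries.

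Ugt2b5, the most abundant member, had the largest fold change and the widest interval of the 10. Ugt2b enzymes as a family conjugate steroid hormones, fatty acids and many drugs. Ugt2b5 stood at 414, 306 and 320.3 FPKM in SASP libraries, against 263, 339.8 and 94.97 FPKM in Control libraries. SASP libraries 2 and 3 lie below Control library 2, and Control library 3 lies far below the other 5. The mean was 347 ± 58.9 FPKM in SASP and 232.5 ± 125 FPKM in Control libraries (SD, n = 3 each). Its log2 fold change came to 0.75 (SE 0.48), with an interval of -0.42 to 1.92, or a fold between 0.747 and 3.78 (limma, adjusted p = 0.794). Without Control library 3 the log2 fold change was 0.20 (limma, adjusted p = 0.874), and without Control library 2 it was 1.12 (limma, adjusted p = 0.71). Its near copy Ugt2b38 stood at 36.0, 22.6 and 25.3 FPKM in SASP libraries, against 20.2, 28.2 and 17.5 FPKM in Control libraries. The groups overlap here too, with a log2 fold change of 0.33 and an interval of -0.27 to 0.94. Summed, Ugt2b5 and Ugt2b38 gave 450.3, 328 and 346 FPKM in SASP libraries, against 283, 368 and 112 FPKM in Control libraries, and Control library 2 again lies within the SASP range.

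The share of Ugt2b5 in the members' summed FPKM differed between libraries. It held 37.3, 35.6 and 35.4% of the sum in SASP libraries, against 31.3, 34.9 and 16.5% in Control libraries. Each SASP share lies above each Control share, although SASP library 3 and Control library 2 are close, and this share was picked after the values were seen and was not tested. The ratio of Ugt2b5 to Ugt2b36 was 2.03, 1.84 and 1.47 in SASP libraries, against 1.54, 1.80 and 0.648 in Control libraries, and the groups overlap. The members other than Ugt2b5 summed to 611 ± 74.997 FPKM in SASP and 565 ± 77.4 FPKM in Control libraries (SD, n = 3 each).

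The other abundant Ugt2b genes had narrower intervals around small differences. Ugt2b36 stood at 204, 166 and 218 FPKM in SASP libraries, against 171, 189 and 147 FPKM in Control libraries. Ugt2b1, whose rat counterpart conjugates bisphenol A, stood at 186, 159 and 132 FPKM in SASP libraries, against 163, 214 and 111 FPKM in Control libraries. For Ugt2b36 SASP library 2 is the lowest of its group and lies below Control libraries 1 and 2, and for Ugt2b1 the SASP values lie inside the Control range. Ugt2b36 had a log2 fold change of 0.21 with an interval of -0.21 to 0.64, and Ugt2b1 of 0.0027 with an interval of -0.67 to 0.67. For Ugt2b1 this is a fold between 0.629 and 1.60.

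Of the less abundant Ugt2b genes, Ugt2b34 had the widest spread among SASP libraries of the 10 members. Ugt2b34 stood at 73.9, 20.9 and 50.2 FPKM in SASP libraries, against 48.6, 44.7 and 40.4 FPKM in Control libraries. The SASP values lie on both sides of the Control values, with a coefficient of variation of 54.9% in SASP and 9.24% in Control libraries. The mean was 48.4 FPKM in SASP and 44.6 FPKM in Control libraries, while the log2 fold change was -0.05 with an interval of -1.13 to 1.03, and 0.45 without SASP library 2. Ugt2b35, the least abundant member, stood at 11.3, 7.26 and 9.16 FPKM in SASP libraries, against 8.26, 9.71 and 4.20 FPKM in Control libraries. The groups overlap and Control library 3 is again the lowest, with a log2 fold change of 0.33 and an interval of -0.41 to 1.08. Without Control library 3 that fold change was 0.022.

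Ugt2a3, whose human counterpart conjugates bile acids, had a negative fold change whose size depended on single libraries. It stood at 45.2, 39.5 and 26.1 FPKM in SASP libraries, against 49.2, 32.2 and 49.0 FPKM in Control libraries. SASP library 3 is the lowest of the 6, and Control library 3, low in most other members, is near the top. The log2 fold change was -0.24 with an interval of -0.89 to 0.42 (limma, adjusted p = 0.879). It was -0.01 without SASP library 3 and -0.44 without Control library 2.

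The Ugt3a enzymes are the branch that prefers other sugars; in human, UGT3A1 uses N-acetylglucosamine and UGT3A2 uses glucose and xylose. Ugt3a1 stood at 28.7, 26.2 and 38.7 FPKM in SASP libraries, against 23.2, 26.2 and 24.8 FPKM in Control libraries. SASP library 2 and Control library 2 are almost level, and the other SASP values are above the Control range. Ugt3a2 stood at 97.9, 91.2 and 76.3 FPKM in SASP libraries, against 80.5, 78.1 and 78.8 FPKM in Control libraries. SASP library 3 is the lowest of the 6 for Ugt3a2 and the highest for Ugt3a1. The log2 fold changes were 0.30 for Ugt3a1 (interval -0.12 to 0.73; limma, adjusted p = 0.774, the lowest of the 10) and 0.15 for Ugt3a2 (interval -0.20 to 0.50). Added together, the pair gave 127, 117 and 115 FPKM in SASP libraries, against 103.7, 104.3 and 103.5 FPKM in Control libraries. The sums do not overlap between groups, while the ratio of Ugt3a2 to Ugt3a1 was 3.41, 3.48 and 1.97 in SASP and 3.46, 2.98 and 3.18 in Control libraries. The sum was formed after the values were seen, and no test was made of it. Of single loci, 6.71% were higher in SASP without overlap, and the sum of the Ugt2 members overlapped between groups.

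**Figure D4:**
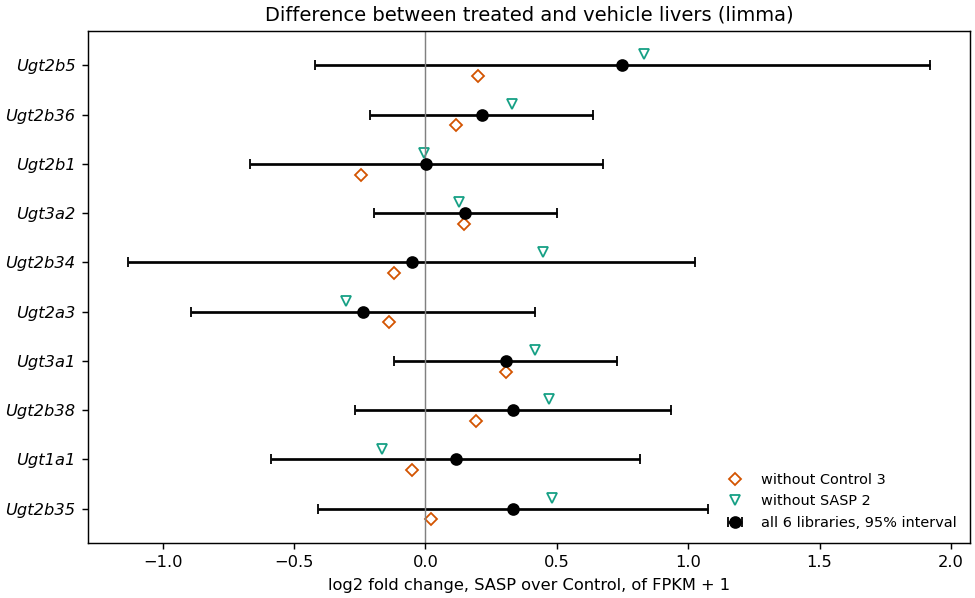
Log2 fold change of each member, SASP over Control, on the log2(FPKM + 1) scale with its 95% interval from limma (black), and the values without Control library 3 (orange diamonds) and without SASP library 2 (green triangles). The 10 intervals include 0, and Ugt2b5 moves from 0.75 to 0.20 when Control library 3 is left out.

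Single libraries moved many members at once. Control library 3 held the lowest value of the 6 libraries in 6 of 10 members and the lowest of its group in 7, while SASP library 1 held the highest of the 6 in 5 members. Control library 3 also had the highest level of each of 5 Kupffer cell markers (Clec4f, Adgre1, Cd5l, Marco and Lyz2). Their sum was 72.3 to 78.0 FPKM in SASP libraries and 57.8, 40.3 and 202 FPKM in Control libraries 1, 2 and 3. In the same library 4 stellate cell and fibroblast markers summed to 65.2 FPKM, against 38.1 to 44.9 FPKM in SASP libraries and 46.8 and 48.8 FPKM in the other Control libraries. The part of these cells in the UGT values was not tested. Of the hepatocyte markers, Alb and Serpina1c were highest in that library, at 18897 and 1279 FPKM, and Apoa1 was second highest, at 797 FPKM. Ttr and Cyp2e1 were each second lowest of the 6, at 1389 and 1356 FPKM. Control library 1 stood apart in a different way: Cyp1a1, the best-known gene switched on by the AHR, a receptor for planar aromatic compounds, was at 283 FPKM there and at or under 0.548 FPKM in the other 5 libraries. Cyp1a2, also an AHR target, was at 2356 FPKM in Control library 1, against 277 to 301 FPKM in SASP libraries and 195 and 380.1 FPKM in the other Control libraries. The Ugt1a locus, which includes the AHR target Ugt1a6a, was highest of the Control libraries there, at 14.3 FPKM, and below SASP library 2.

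The nuclear receptors CAR and PXR, which switch on drug-metabolising genes, are known regulators of liver UGTs. Their usual marker genes were Cyp2b10, at 61.6, 58.1 and 68.5 FPKM in SASP against 27.2, 9.76 and 19.4 FPKM in Control libraries, and Cyp3a11, at 1812, 1087 and 1028 FPKM in SASP against 713, 948 and 1236 FPKM in Control libraries. The Cyp2b10 groups do not overlap (log2 fold change 1.79; limma, adjusted p = 0.281), and those of Cyp3a11 do.

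Other UGT rows of the table averaged at most 5.43 FPKM over the 6 libraries. Ugt2b37 stood at 1.09, 0.268 and 0.387 FPKM in SASP libraries, against 0.993, 0.591 and 2.13 FPKM in Control libraries, and was too low to be tested. An assembled piece named Ugt2a3 without an annotated transcript stood at 6.89, 5.30 and 1.30 FPKM in SASP libraries, against 10.4, 0 and 8.66 FPKM in Control libraries. A similar piece named Ugt2b36 stood at 1.75, 1.35 and 0.931 FPKM in SASP libraries, against 1.12, 1.35 and 0.959 FPKM in Control libraries. Both pieces were tested and did not pass, with overlapping groups (limma, adjusted p = 0.998 and 0.908). Ugt2a1 and Ugt8a did not exceed 0.0683 FPKM in any library. Ugt1a5, Ugt1a9 and Ugt2a2 had no Ensembl transcript matched in any row and were not analysed here. The row of the Ugt1a locus holds 43 transcripts, of which 14 are Ensembl ones. Whether the assembled rest includes RNA of Ugt1a5 or Ugt1a9 cannot be told.

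Glucuronidation depends on UDP-glucuronate, made from glucose by way of UDP-glucose, and in mice the same sugar acid feeds the synthesis of ascorbate. Of 11 genes of this supply and its ascorbate branch 11 were tested, 0 passed, and 8 had positive fold changes, with a median log2 fold change of 0.40 against -0.0021 over all tested loci. In 2 of the 11 the SASP values were all above the Control values, against 6.71% of all loci. The list was chosen with earlier results of these data known, so this count is no test of it. At the locus of Ugdh, the dehydrogenase that makes UDP-glucuronate, the level was 11.5, 9.96 and 9.60 FPKM in SASP libraries, against 5.29, 6.12 and 4.81 FPKM in Control libraries. The lowest SASP value is above the highest Control value, and the locus also pools Smim14 and Gm43552. Its log2 fold change was 0.83 with an interval of 0.51 to 1.14 (limma, adjusted p = 0.191). Pgm1, a phosphoglucomutase that the table lists under the name Pgm2, stood at 52.4, 60.7 and 56.3 FPKM in SASP libraries, against 44.8, 35.5 and 42.2 FPKM in Control libraries (log2 fold change 0.46; limma, adjusted p = 0.541). The groups do not overlap there either. The most abundant genes of the list were Rgn, whose product makes the lactone step of ascorbate synthesis, and Gulo, whose product finishes it. Rgn averaged 156 ± 48.7 FPKM in SASP and 111 ± 21.4 FPKM in Control libraries, and Gulo 77.4 ± 13.4 FPKM in SASP and 84.0 ± 14.3 FPKM in Control libraries (SD, n = 3 each). Both had overlapping groups.

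The step after conjugation is export, which Abcc2 carries out into bile and Abcc3 and Abcc4 into blood. Of 11 genes for export, uptake and bilirubin formation 11 were tested, 0 passed, and 7 had positive fold changes, with a median log2 fold change of 0.13. In 3 of the 11 the SASP values were all above the Control values, against 6.71% of all loci. This list too was chosen with earlier results of these data known, so the count is no test of it. Abcc3 stood at 117, 143 and 129 FPKM in SASP libraries, against 76.2, 90.3 and 77.4 FPKM in Control libraries (log2 fold change 0.67; limma, adjusted p = 0.37). Abcc4 stood at 3.88, 2.91 and 2.23 FPKM in SASP libraries, against 0.572, 0.448 and 0.687 FPKM in Control libraries (log2 fold change 1.33; limma, adjusted p = 0.147). Blvrb, a biliverdin reductase, stood at 17.3, 17.03 and 16.3 FPKM in SASP libraries, against 8.09, 10.7 and 10.9 FPKM in Control libraries (log2 fold change 0.73; limma, adjusted p = 0.276). In each of these the groups are apart, yet the differences did not pass when adjusted over all tested loci. Slco1b2, an uptake carrier of bilirubin and drugs and the most abundant gene of the list, averaged 148 ± 23.5 FPKM in SASP and 134 ± 6.21 FPKM in Control libraries (SD, n = 3 each), with overlapping groups.

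Of 10 transcription factors known to act on liver UGT genes, or as partners of such factors, 10 were tested, 0 passed, and 6 had positive fold changes, with a median log2 fold change of 0.05. Hnf4a, a master regulator of liver genes and the most abundant of the 10, stood at 93.9, 93.6 and 86.6 FPKM in SASP libraries, against 75.3, 83.7 and 68.3 FPKM in Control libraries. It was the 1 regulator of 10 whose groups do not overlap, a share near the 6.71% of all loci that were higher in SASP without overlap, with a log2 fold change of 0.27 and an interval of -0.06 to 0.60 (limma, adjusted p = 0.73). Nr1i3, the receptor CAR itself, stood at 13.1, 18.3 and 20.1 FPKM in SASP libraries, against 19.5, 18.1 and 12.2 FPKM in Control libraries, with overlapping groups.

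**Figure D5:**
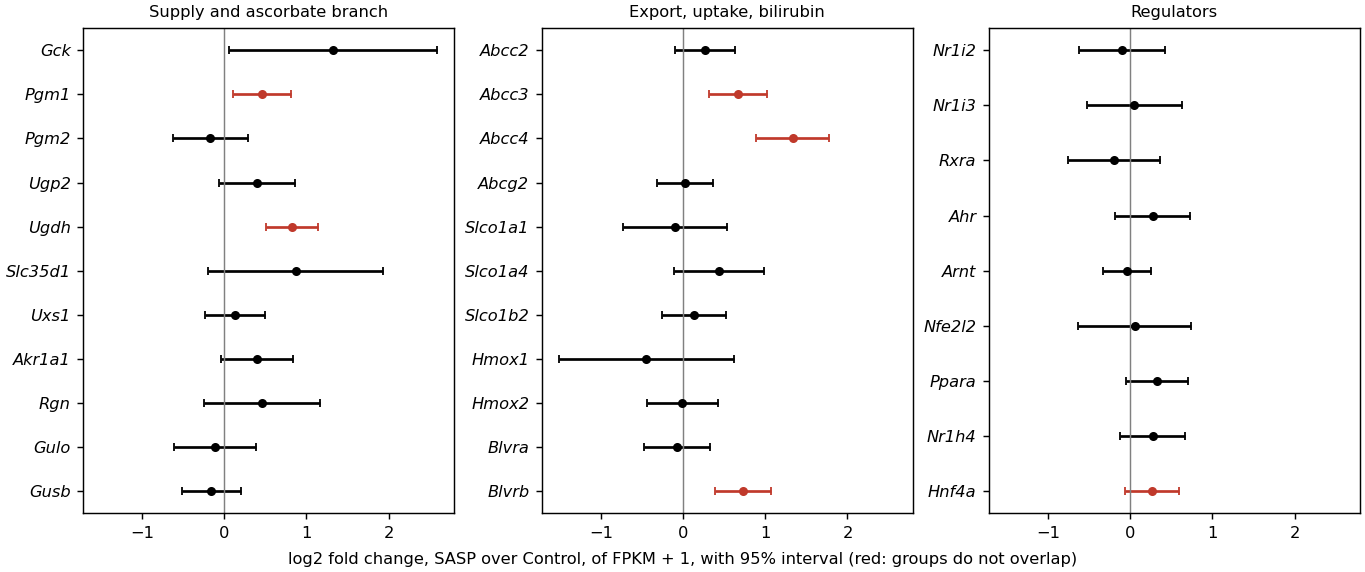
Log2 fold change, SASP over Control, of FPKM + 1 with 95% intervals from limma for the 11 supply genes, the 11 export, uptake and bilirubin genes and the regulators reported. The lists were chosen with earlier results of these data known. Red marks the genes whose SASP values all lie above the Control values, 2 supply, 3 export or bilirubin genes and 1 regulator, against 6.71% of all loci, among them Ugdh at 0.83, Abcc4 at 1.33 and Hnf4a at 0.27, and 0 of those drawn passed after adjustment over all loci.

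The genes whose pattern over the 6 libraries was most like a member were looked up among 3673 loci with an Ensembl transcript and a mean of at least 5 FPKM, by Pearson's r of log2(FPKM + 1). For the Ugt1a locus these were Decr1, Eci1, Aspscr1, Ubr4 and RP23-296G24.1, with r between 0.959 and 0.97, and 29 loci reached 0.9. For Ugt2b5 they were Garem, Tmem261, Enho, Sepp1 and Psmd7, with r between 0.982 and 0.995, and 59 loci reached 0.9. Sepp1, the plasma selenium carrier, stood at 1307, 1214 and 1144 FPKM in SASP libraries, against 1135, 1201 and 470.3 FPKM in Control libraries. Like Ugt2b5, these 5 were lowest in Control library 3, and r over 6 libraries describes these samples only.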

How the data were processed

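Per the submitters' processing notes, reads were handled with cutadapt, FastQC, Bowtie2 and StringTie on GRCm38.p5, with no versions given. Per the labels' protocols, total liver RNA (RIN above 7.0) was depleted of ribosomal RNA. The authors deposited FPKM per locus, and most locus names are StringTie's. Values were used as deposited, with a pseudocount of 1, and tested with limma 3.58.1 (mean-variance trend, R 4.3.3) over 11969 loci that reached 1 FPKM in 3 or more libraries, two-sided, with Benjamini-Hochberg adjustment at 0.05 over all of them. The script was tested on simulated data. Names and coordinates come from GENCODE M21 (GRCm38), which 24750 of 24822 loci with an Ensembl transcript matched. Sequences were compared with Biopython 1.88, and the figures were made with matplotlib 3.10.9 under Python 3.11.15. The depth is unknown, so precision cannot be given from depth.

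The regulator counts include a gene that is not reported here. The members and lists were chosen with earlier results of these data known. Named were the members, other UGT rows with a group mean of at least 1 FPKM, and of each list the genes past the threshold, or else those whose groups do not overlap, with the 2 most abundant. Also named were the 5 loci most like the Ugt1a locus and Ugt2b5, and the CAR, PXR and AHR markers. Alternatives changed the pseudocount, filter, scaling, trend, block, libraries and rows used. Sinusoidal endothelial, cholangiocyte, pericentral and periportal marker sums were computed as well: 14.1 to 20.3 FPKM in SASP and 15.8 to 20.7 FPKM in Control libraries for endothelial markers. Cholangiocyte markers summed to 0.922 to 2.07 FPKM in SASP and 1.45 to 2.09 FPKM in Control libraries, pericentral markers to 378 to 519 FPKM in SASP and 310.0 to 2526 FPKM in Control libraries (the highest from Cyp1a2 in Control library 1), and periportal markers to 696 to 1401 FPKM in SASP and 993 to 1117 FPKM in Control libraries.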

Additional observations from a re-analysis of the deposited data

How the results depend on the processing

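Under 15 alternatives 0 of the 10 members passed the adjusted threshold, and the counts for the supply, export and regulator lists were also 0 in each (limma). The other UGT rows gave 0 wherever any was tested; with FPKM summed per gene name or loci with an Ensembl transcript none was. Adjusted p of the members lay between 0.71 and 0.999. Of 150 log2 fold changes, 141 kept their direction and 9 turned. The changes of filter, trend and block, and the restriction to loci with an Ensembl transcript, leave the fold change of each member as it was. Summing FPKM per gene name altered it only in Ugt2a3, Ugt2b36 and Ugt3a2. Many of the 141 were therefore bound to keep their direction, and the count does not measure how firm the signs are. The Ugt1a locus lay between -0.17 and 0.31 when a library was left out. Ugt2b1 lay between -0.25 and 0.22 when a library was left out, and was -0.00195 with median-of-ratios scaling and -0.024 with quantile normalization. Ugt2b34 lay between -0.44 and 0.45 when a library was left out. For each of these turns the cause was not tested. The summed FPKM difference, 160.4 FPKM, lay between 50.005 (without Control library 3) and 249 FPKM (without Control library 2) when a library was left out. With the replicate block, 0 members passed and the count over all loci was 0 higher and 0 lower, against 2 and 0 without it. Same-numbered libraries did not deviate together over the tested loci (correlations of 0.00967, -0.0668 and -0.0223). These correlations cannot decide whether a shared number stands for a shared batch. Over all loci the count was 1 with a pseudocount of 0.1, 0 with no filter, 6 higher and 1 lower with a minimum of 5 FPKM, 3 with median-of-ratios scaling, 23 higher and 22 lower without the trend, 7 with FPKM summed per gene name, 9 higher and 3 lower over loci with an Ensembl transcript (chosen after seeing the data), and up to 8 higher and 6 lower when a library was left out. Since FPKM keeps no read totals, no limit from depth can be stated for low genes.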
